A study of Mus musculus with 7 samples.

Results

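The genes described here make fatty acids from acetyl-CoA in the liver, together with the 2 transcription factors that switch them on and Thrsp, a small protein that promotes the same pathway. The set was defined by gene symbol and holds 10 genes, of which 9 had a probe set on the array with that symbol, out of 16819 genes compared. They are Thrsp, Acly, Acaca, Acacb, Fasn, Scd1, Elovl6, Srebf1 and Mlxipl. The remaining gene, Me1 (malic enzyme, a source of NADPH), is not analysed here. RNA of whole liver was measured on 7 Affymetrix whole-transcript arrays from male Dicer1 fl/fl mice of 129S4 and C57BL/6 ancestry (a mixed strain), which are homozygous for a Dicer1 gene that Cre can delete. The groups were 3 control arrays at 0 weeks, whose labels name no virus, and 2 arrays each at 2 and at 4 weeks after AAV8-Ttr-Cre, an adeno-associated virus that makes Cre recombinase from the promoter of transthyretin, a gene of hepatocytes. Mice were injected at 8 to 10 weeks of age and fasted for 4 hours before the liver was taken. The promoter aims Cre at hepatocytes, and recombination was not measured by cell type. There was no vector lacking Cre and no untreated liver from the later times, so effects of virus, Cre, age and Dicer1 loss cannot be told apart.

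In de novo lipogenesis, citrate leaves the mitochondrion and is split by ATP citrate lyase (Acly) to cytosolic acetyl-CoA. Acetyl-CoA carboxylase makes malonyl-CoA from it, fatty acid synthase (Fasn) builds palmitate from malonyl-CoA, and Elovl6 and Scd1 lengthen and desaturate the product. Insulin acts on these genes largely through SREBP-1c, encoded by Srebf1, and sugar through ChREBP, encoded by Mlxipl. Thrsp is induced by thyroid hormone and by feeding on carbohydrate.

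To show regulatory sequence of genes that passed the test, the 250 bases before the annotated transcription start are given below for Thrsp and Elovl6, lower at both times, for Fasn, lower at 4 weeks, and for Mlxipl, higher at both. Acacb also passed at 4 weeks but is not shown, because its window, like that of Acaca, reads near the annotated start like the end of an intron and may not be a promoter. The sequences are from RefSeq (build GRCm38.p6), 5′ to 3′ on the strand of the gene, and the capitals mark matches to the E-box CACGTG, the CCAAT box (CCAAT on either strand), the sterol element TCACNCCAC or the D-box TTATGTAA. For Mlxipl, which has 2 annotated starts, the window that holds an E-box is shown. The window of the other start is chr5:135106641-135106890. Which start gave the Mlxipl signal was not tested.
Thrsp, chr7:97417551-97417800, minus strand: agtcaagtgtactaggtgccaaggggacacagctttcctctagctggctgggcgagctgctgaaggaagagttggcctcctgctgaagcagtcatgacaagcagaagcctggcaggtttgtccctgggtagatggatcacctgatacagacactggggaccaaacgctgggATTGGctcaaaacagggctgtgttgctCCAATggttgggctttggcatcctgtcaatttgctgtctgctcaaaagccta
Elovl6, chr3:129532136-129532385, plus strand: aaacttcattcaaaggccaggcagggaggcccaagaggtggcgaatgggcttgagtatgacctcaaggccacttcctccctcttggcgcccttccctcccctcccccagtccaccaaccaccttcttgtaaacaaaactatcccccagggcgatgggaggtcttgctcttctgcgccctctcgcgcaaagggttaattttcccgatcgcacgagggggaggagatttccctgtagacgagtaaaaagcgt
Fasn, chr11:120824548-120824797, minus strand: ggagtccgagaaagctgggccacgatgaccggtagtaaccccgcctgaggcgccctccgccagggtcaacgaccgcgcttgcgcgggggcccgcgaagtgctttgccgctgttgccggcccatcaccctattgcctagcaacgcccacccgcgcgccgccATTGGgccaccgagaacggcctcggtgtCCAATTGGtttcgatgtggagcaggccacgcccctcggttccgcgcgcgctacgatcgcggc
Mlxipl, chr5:135089640-135089889, plus strand: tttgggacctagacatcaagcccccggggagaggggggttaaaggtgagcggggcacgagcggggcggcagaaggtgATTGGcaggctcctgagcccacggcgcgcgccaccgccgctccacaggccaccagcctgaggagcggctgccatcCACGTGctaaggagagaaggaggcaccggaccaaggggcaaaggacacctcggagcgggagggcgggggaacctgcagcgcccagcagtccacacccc

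A window was found for 8 of the 9 measured genes, not for Scd1, with 11 windows in all, the doubtful ones of Acaca and Acacb included. A CCAAT box, the motif bound by NF-Y, stood in 6 of the 11 windows, that of Acacb among them. It stood in 33.8% of 32851 windows of all genes. The 6 windows belong to 5 of the 8 genes, and Srebf1 has 3 of the 11 windows and Mlxipl 2. The Thrsp window held 2 CCAAT boxes, starting 79 and 52 bases before the transcription start. The Fasn window held 3, of which those at 62 and 59 bases overlap on opposite strands. The E-box stood in 1 of the 11 windows, that of Mlxipl 98 bases before its start, against 6.02% of all windows. The sterol element stood in 1, the other Mlxipl window (1.05% of all windows), and the D-box, the site of Dbp-type factors, in 0 (0.819% of all windows). The short motif AGGTCA of nuclear receptors, which is not in capitals, stood in the windows of Acly and Elovl6 and in 14% of all windows. These are matches of letters on either strand and not evidence of binding.

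Thrsp showed by far the largest change of the set. Its log2 signal was 12.86, 12.99 and 12.89 in the controls. It was 9.62 and 10.05 in the livers of week 2, and 9.83 and 9.97 in those of week 4. All 4 arrays after Cre lay far below all 3 controls. Against control the log2 fold change was -3.08 at 2 weeks (adjusted p = 0.0024, SE 0.13, by limma with 2 and 3 arrays) and -3.02 at 4 weeks (SE 0.13, adjusted p = 0.00156), or 8.45-fold and 8.09-fold lower. Ordered from the most negative log2 fold change, Thrsp was number 3 of 16819 genes at 2 weeks and number 6 at 4 weeks. Leaving out any 1 of the 7 arrays kept it past the threshold, with adjusted p-values between 0.00913 and 0.0304 at 2 weeks and between 0.00476 and 0.044 at 4 weeks. In the fits without a 2 week or a 4 week array, that time has 1 array, which is assumed to vary like the other groups, here and for every gene below.

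Of the 9 genes, 2 fell and 1 rose at 2 weeks, when 2.47% of all genes tested fell and 3.46% rose (adjusted p under 0.05 over all genes). At 4 weeks 4 fell and 1 rose, against 4.62% and 5.15% of all genes. The median log2 fold change of the 9 was -0.36 and -0.34 at the 2 times, and that of all genes -0.002 and 0.008. The genes that fell were Thrsp and Elovl6 at both times, joined by Acacb and Fasn at 4 weeks, and the gene that rose was Mlxipl. Both comparisons use the same 3 controls. Without control replicate 2 or 3, 1 of the 9 passed at 2 weeks (Thrsp). At 4 weeks 3, 2 and 3 passed without control replicate 1, 2 or 3, 3 without either 2 week array, and 1 (Thrsp) without either 4 week array.

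**Figure D1:**
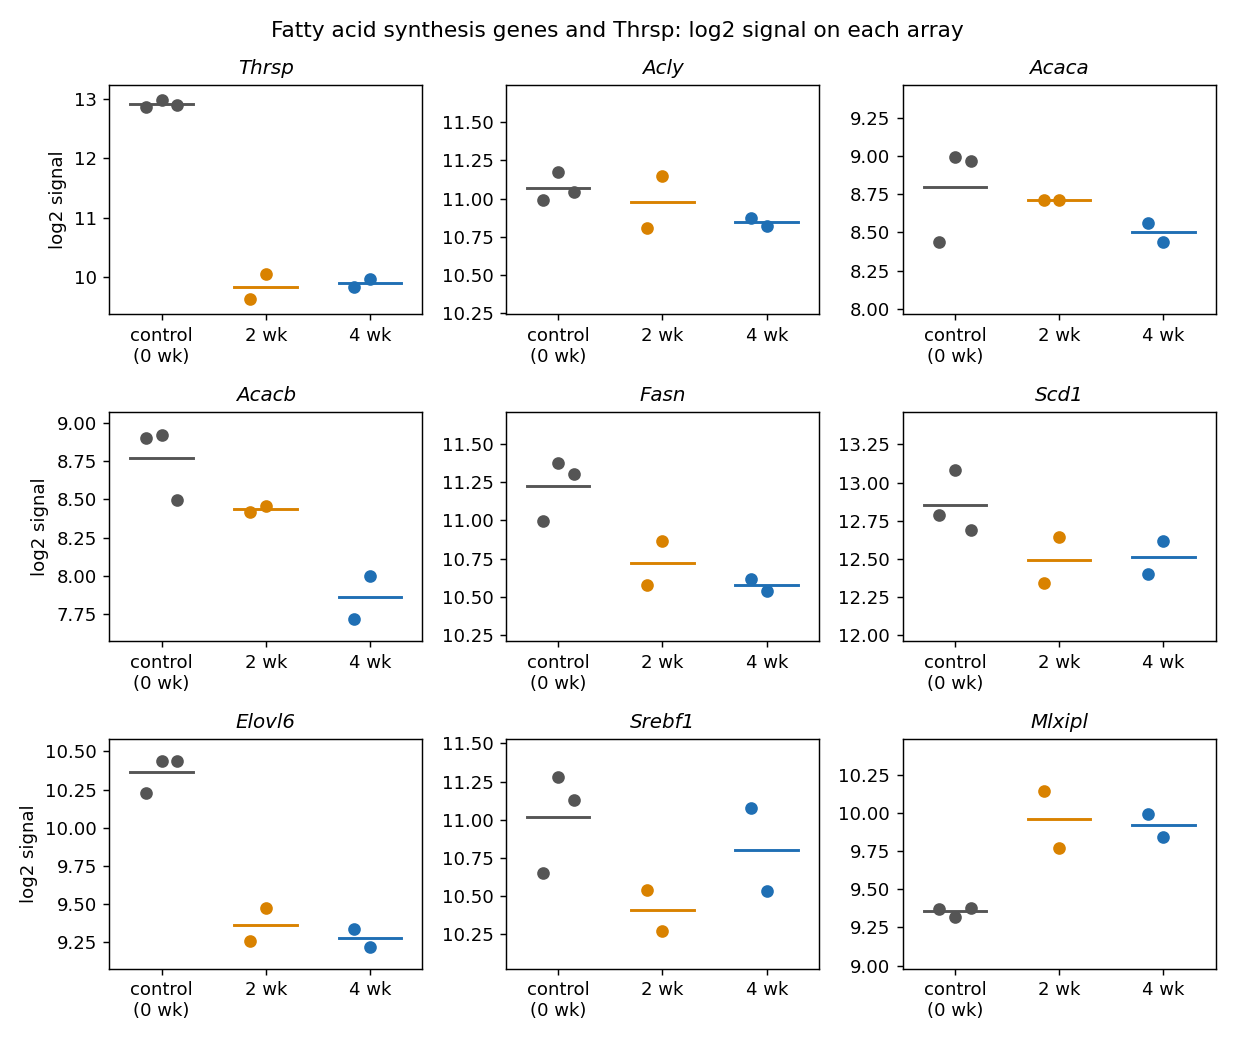
Log2 signal (y axis, a separate scale in each panel) of the 9 measured genes on each of the 7 arrays, by group (x axis); points are single arrays, in replicate order within a group, and lines are group means. Thrsp is at 12.86 or above in the controls and at 10.05 or below after Cre, Elovl6 at 10.23 or above and 9.47 or below, and Mlxipl is higher on each array after Cre than on any control.

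Acly and Acaca, at the start of the pathway, did not pass at either time. Acly read 10.99, 11.18 and 11.04 in the controls, 10.81 and 11.15 on the 2 week arrays, and 10.88 and 10.82 on the 4 week arrays, so the groups overlapped at 2 weeks and did not overlap at 4 weeks. Its log2 fold changes of -0.09 (95% interval -0.37 to 0.18, adjusted p = 0.677, limma) and -0.22 (-0.50 to 0.05, adjusted p = 0.297) did not pass.

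Of the 2 acetyl-CoA carboxylase genes, Acacb fell at 4 weeks. Acaca, which encodes the cytosolic enzyme ACC1 that supplies malonyl-CoA to Fasn, read 8.43, 8.99 and 8.97 in the controls, 8.71 on both 2 week arrays, and 8.56 and 8.44 at 4 weeks. The spread of the controls covered both 2 week arrays, and control replicate 1 lay at the level of the 4 week arrays. The 2 week values were equal to every digit given. This was so for 1733 of the 16819 genes in that pair of arrays and for 1721 to 2266 genes in any pair. The log2 fold changes were -0.09 (95% interval -0.53 to 0.35) and -0.30 (-0.74 to 0.14, adjusted p = 0.379, limma). Without control replicate 1 the 4 week value was -0.48, with an adjusted p of 0.041.

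Acacb encodes ACC2, the carboxylase at the mitochondrial surface whose malonyl-CoA restrains fatty acid oxidation. It read 8.90, 8.92 and 8.49 in the controls, 8.41 and 8.46 on the 2 week arrays, and 7.72 and 8.00 on the 4 week arrays. The 2 week arrays sat just under the lowest control, and both 4 week arrays were lower again. The log2 fold change was -0.34 at 2 weeks (SE 0.16, adjusted p = 0.277, limma) and -0.91 at 4 weeks (SE 0.16, adjusted p = 0.0264), or 1.88-fold lower. Of the 7 fits that each leave out an array, 1 kept the call at 4 weeks (without control replicate 3, adjusted p = 0.0423). In the others the adjusted p ran from 0.0507 to 0.133 and the log2 fold change from -1.05 to -0.77.

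Fasn, the multifunctional synthase that makes palmitate, read 10.99, 11.38 and 11.31 in the controls, 10.58 and 10.87 on the 2 week arrays, and 10.62 and 10.54 on the 4 week arrays. The groups did not overlap at either time, though 2 week replicate 2 came near control replicate 1. The log2 fold change was -0.50 at 2 weeks (SE 0.14, adjusted p = 0.103, limma) and -0.65 at 4 weeks (SE 0.14, adjusted p = 0.0471), or 1.57-fold lower. The 4 week call did not survive the loss of any 1 array, with adjusted p-values from 0.0517 (without control replicate 1) to 0.204 (without 4 week replicate 2).

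Elovl6, which elongates palmitate to stearate, read 10.23, 10.44 and 10.44 in the controls, 9.26 and 9.47 on the 2 week arrays, and 9.34 and 9.22 on the 4 week arrays. All arrays after Cre were clearly below all controls. The log2 fold change was -1.002 at 2 weeks (SE 0.10, adjusted p = 0.0123, limma) and -1.09 at 4 weeks (SE 0.10, adjusted p = 0.00867), or 2.00-fold and 2.12-fold lower. It missed the threshold at 2 weeks without control replicate 2 or 3 (adjusted p = 0.0584 and 0.0649) and at 4 weeks without either 4 week array (0.0607 and 0.0628).

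Scd1, the main stearoyl-CoA desaturase of liver, read 12.79, 13.08 and 12.69 in the controls, 12.34 and 12.65 on the 2 week arrays, and 12.41 and 12.62 on the 4 week arrays. Each array after Cre was below the lowest control, 2 week replicate 2 by little. The log2 fold changes of -0.36 (95% interval -0.74 to 0.02, adjusted p = 0.24, limma) and -0.34 (-0.72 to 0.04, adjusted p = 0.244) did not pass.

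The 2 transcription factor genes did not share a pattern. Srebf1 read 10.65, 11.28 and 11.13 in the controls, 10.54 and 10.27 on the 2 week arrays, and 11.08 and 10.53 on the 4 week arrays. The 2 week arrays lay below the controls, while one 4 week array was among the controls and the other was at the 2 week level. The log2 fold changes were -0.61 at 2 weeks (95% interval -1.22 to -0.01, adjusted p = 0.212, limma) and -0.22 at 4 weeks (-0.82 to 0.39, adjusted p = 0.653), with neither passing. Without 4 week replicate 2 the 4 week value was 0.06.

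Mlxipl was the gene of the set that went up. It read 9.37, 9.32 and 9.38 in the controls, 10.15 and 9.77 on the 2 week arrays, and 9.99 and 9.84 on the 4 week arrays. The controls lay close together, and every array after Cre was higher than all of them. The log2 fold change was 0.60 at 2 weeks (SE 0.12, adjusted p = 0.0458, limma) and 0.56 at 4 weeks (SE 0.12, adjusted p = 0.0412), or 1.52-fold and 1.48-fold higher. The call was lost without any 1 of the controls at either time, the adjusted p without replicate 1, 2 or 3 being 0.122, 0.144 and 0.143 for week 2 and 0.11, 0.131 and 0.123 for week 4. It was also lost at 2 weeks without either 4 week array (0.1 in both fits) and at 4 weeks without 4 week replicate 1 or 2 (0.185 and 0.13).

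**Figure D2:**
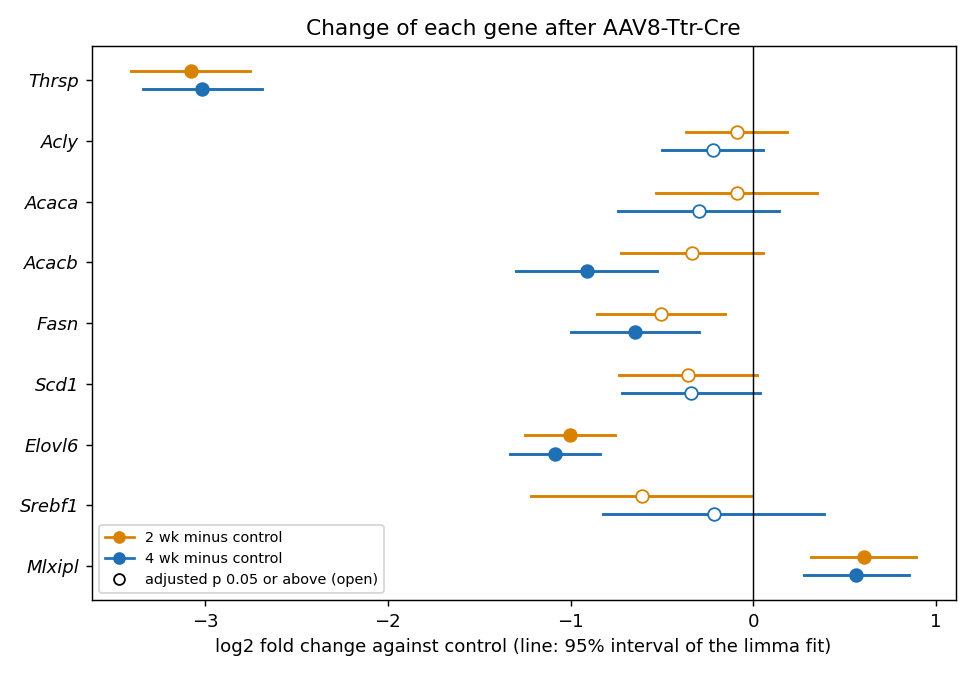
Log2 fold change against control (x axis) of each of the 9 genes (y axis) at 2 and 4 weeks; points are estimates of the limma fit, lines their 95% intervals without adjustment for the number of genes, and open points have an adjusted p of 0.05 or above. Thrsp lies near -3 and Elovl6 near -1 at both times, Acacb is further from 0 at 4 weeks, and Mlxipl is the gene to the right of 0.

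On all 4 arrays after Cre, 5 of the 9 genes (Thrsp, Elovl6, Fasn, Acacb and Scd1) were below the lowest control, as were 12.2% of all genes. Likewise 1 of the 9 (Mlxipl) was above the highest control on all 4, as were 12.9% of all genes. With the mean of both times set against control, 4 of the 9 fell (Thrsp, Elovl6, Acacb and Fasn) and 1 rose (Mlxipl), when 6.12% and 6.79% of all genes did so. In that comparison Scd1 had a log2 fold change of -0.35 (95% interval -0.67 to -0.03, adjusted p = 0.146, limma, n = 3 and 4). Acacb missed the threshold there in each fit that left out an array (adjusted p from 0.0765 to 0.124) except that without control replicate 3 (0.0382). Fasn likewise missed it (0.0516 to 0.128) except without control replicate 1 (0.039), when Acaca passed (0.0363). Mlxipl missed it without any control (0.0727 to 0.0857) and without either 4 week array (0.0634 and 0.0747).

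Between 4 and 2 weeks 0 of the 9 genes passed, when 0.00595% of all genes rose (1 gene, the clock repressor Nr1d1) and 0% fell by limma. At an unadjusted p under 0.05 the counts were 1 of the 9 genes and 1250 of all genes. The 1 gene was Acacb, at -0.58 (SE 0.17, adjusted p = 0.55). For Thrsp the difference was 0.06 (95% interval -0.29 to 0.42), for Elovl6 -0.09 (-0.36 to 0.18), for Fasn -0.14 (-0.53 to 0.24) and for Mlxipl -0.04 (-0.36 to 0.28).

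In the 6 lists of related genes that follow, 27 genes passed at 2 weeks, of which 5 (Insig2, Arntl, Per3, Dbp and Usp2) did so in each of the 7 fits that leave out 1 array. At 4 weeks 39 passed, of which 3 (Insig2, Nr1d1 and Usp2) did so in each. The other calls in these lists were lost in at least 1 such fit. Those lost in every such fit were Elovl1, Nfyb and Irs1 at 2 weeks. At 4 weeks they were H6pd, Slc2a2, Nr1h3, Irs1 and Abcg5. Of all genes tested 3.46% rose and 2.47% fell at 2 weeks, and 5.15% rose and 4.62% fell at 4 weeks. The counts of each list below are to be read beside these shares.

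Genes that feed the pathway with carbon and NADPH moved both ways. Of 15 measured, 3 rose and 3 fell at 2 weeks, and 3 rose and 5 fell at 4 weeks, with medians of -0.01 and -0.03. Pklr, the liver pyruvate kinase and a textbook target of ChREBP, read 11.83, 12.34 and 12.16 in the controls and 10.74, 10.73, 10.95 and 10.57 after Cre. It was thus lower on each array after Cre, by 1.37 on the log2 scale at 2 weeks (adjusted p = 0.0199, limma) and by 1.35 at 4 weeks (adjusted p = 0.0158), opposite in direction to Mlxipl. The glucose transporter gene Slc2a2 fell 1.84-fold at 2 weeks and Pdha1, a subunit of pyruvate dehydrogenase, 1.47-fold. Slc2a2 and Pdha1 also passed at 4 weeks, in the same direction. Pdk4, the kinase that switches that enzyme off, was 2.75-fold and then 2.04-fold higher, passing at both times. The citrate synthase gene Cs rose 1.68-fold at 4 weeks. H6pd, a source of NADPH in the endoplasmic reticulum, rose by 0.68 on the log2 scale at 2 weeks. Cs and H6pd each passed at the other time as well, in the same direction. The citrate carrier Slc25a1, which delivers the substrate of Acly, was at -0.73 at 2 weeks (adjusted p = 0.0713) and fell at 4 weeks (-0.81, adjusted p = 0.0453). Mdh1 and Idh1 were at 0.16 and 0.08 at 2 weeks, short of the threshold.

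Of 17 other genes of elongation and desaturation, 1 rose and 0 fell at 2 weeks, and 2 rose and 3 fell at 4 weeks, with medians of -0.03 and -0.10. Elovl1, which elongates very long chains, rose by 0.47 and then 0.59 on the log2 scale. At 4 weeks the acyl-CoA synthetase gene Acsl5 rose 1.45-fold, and Hsd17b12 and Hacd3, which act with the elongases in each cycle, had log2 fold changes of -0.57 (adjusted p = 0.0254, limma) and -0.42 (adjusted p = 0.0442). The malonyl-CoA decarboxylase gene Mlycd fell 1.20-fold. Mid1ip1, which encodes the partner and relative of the Thrsp protein, read 9.48, 10.02 and 9.90 in the controls, 9.32 and 8.88 on the 2 week arrays, and 9.41 and 8.99 on the 4 week arrays. Its arrays after Cre were below the controls, and it did not pass (-0.70, adjusted p = 0.143, and -0.60, adjusted p = 0.176). Fads2 was at -0.00 and -0.12 and Tecr at -0.16 and -0.22.

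Of 28 regulators of SREBP-1 and ChREBP, 5 rose and 2 fell at 2 weeks, and 6 rose and 2 fell at 4 weeks, with medians of -0.01 at both. Insig2, which holds SREBP precursors in the endoplasmic reticulum, read 11.07, 11.18 and 10.97 in the controls, 12.53 and 12.64 on the 2 week arrays, and 12.50 and 12.67 on the 4 week arrays. The rise was 1.51 log2 units at 2 weeks (adjusted p = 0.004, limma, SE 0.09) and 1.52 at 4 weeks (adjusted p = 0.00284). Insig1, its SREBP-responsive relative, was at -0.13 and -0.02, and the escort protein gene Scap at 0.07 and 0.12, none of which passed. In insulin signalling the receptor gene Insr rose by 0.50 and 0.68 on the log2 scale and the adaptor gene Irs2 2.32-fold at 2 weeks. Irs1 was at 0.73 (adjusted p = 0.0482, limma) and 0.68 (0.0442), and the kinase gene Akt1 fell 1.59-fold at 2 weeks. Irs2 and Akt1 also passed at 4 weeks, each in the same direction as before. Nfyb, a subunit of the CCAAT-binding factor NF-Y, rose 1.39-fold at 4 weeks and Prkaa1, a catalytic subunit of AMP-activated kinase, 1.37-fold. Nfyb also rose at 2 weeks, when Prkaa1 did not pass. Mlx, the obligate partner of ChREBP, was at -0.48 at 2 weeks (adjusted p = 0.0341), and Nr1h3, the liver X receptor gene that drives Srebf1, at -0.33 at 4 weeks (adjusted p = 0.0377). Rxra was at 0.01 and -0.11, short of the threshold.

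Of 13 other targets of SREBP-1, ChREBP or the liver X receptors, 2 rose and 0 fell at 2 weeks, and 4 rose and 1 fell at 4 weeks, with medians of 0.02 and 0.12. Lpcat3, which puts polyunsaturated chains into phospholipids, rose 1.77-fold and 1.96-fold, and the cholesterol exporter gene Abca1 1.54-fold and 1.61-fold. At 4 weeks Gpd1, which makes glycerol 3-phosphate, rose 1.51-fold, and Abcg5 was at 0.62 (adjusted p = 0.0491, limma). Cyp7a1, the first enzyme of bile acid synthesis, read 12.36, 12.68 and 12.67 in the controls, 10.16 and 9.74 on the 2 week arrays, and 8.79 and 10.75 on the 4 week arrays. It was lower on all 4 arrays after Cre, and the 4 week arrays were far apart. Its log2 fold change was -2.62 at 2 weeks (adjusted p = 0.055, limma), short of the threshold, and -2.80 at 4 weeks (adjusted p = 0.0374). At 4 weeks this was 6.95-fold lower, 3.53-fold without replicate 1 of that group and 13.7-fold without replicate 2, and the call held in 1 of the 7 fits. Gpam, which starts glycerolipid synthesis, was at -0.43 at 4 weeks (adjusted p = 0.0967) and G6pc at -0.16 and -0.31. At 4 weeks 1 of the 9 lipogenic genes rose (Mlxipl) and 1 of these 13 targets fell (Cyp7a1). Of all genes 5.15% rose and 4.62% fell at that time. The Mlxipl call was lost without any 1 of the controls.

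Because thyroid hormone induces Thrsp, genes of its action were read as well. Of 10 measured, 0 rose and 1 fell at 2 weeks, and 0 rose and 2 fell at 4 weeks, with medians of 0.03 and 0.08. Dio1, the hepatic deiodinase gene that thyroid hormone induces, read 11.31, 11.51 and 11.54 in the controls, 10.77 and 10.51 on the 2 week arrays, and 10.45 and 10.24 on the 4 week arrays. It fell 1.76-fold and 2.16-fold (adjusted p = 0.0251 and 0.0103, limma). The amino acid and thyroid hormone transporter gene Slc16a10 fell 1.39-fold at 4 weeks, and the induced genes Klf9 (0.69 and 0.63) and Gpd2 (-0.54 and -0.55) did not pass. The receptor gene Thrb was at -0.10 and 0.05.

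**Figure D3:**
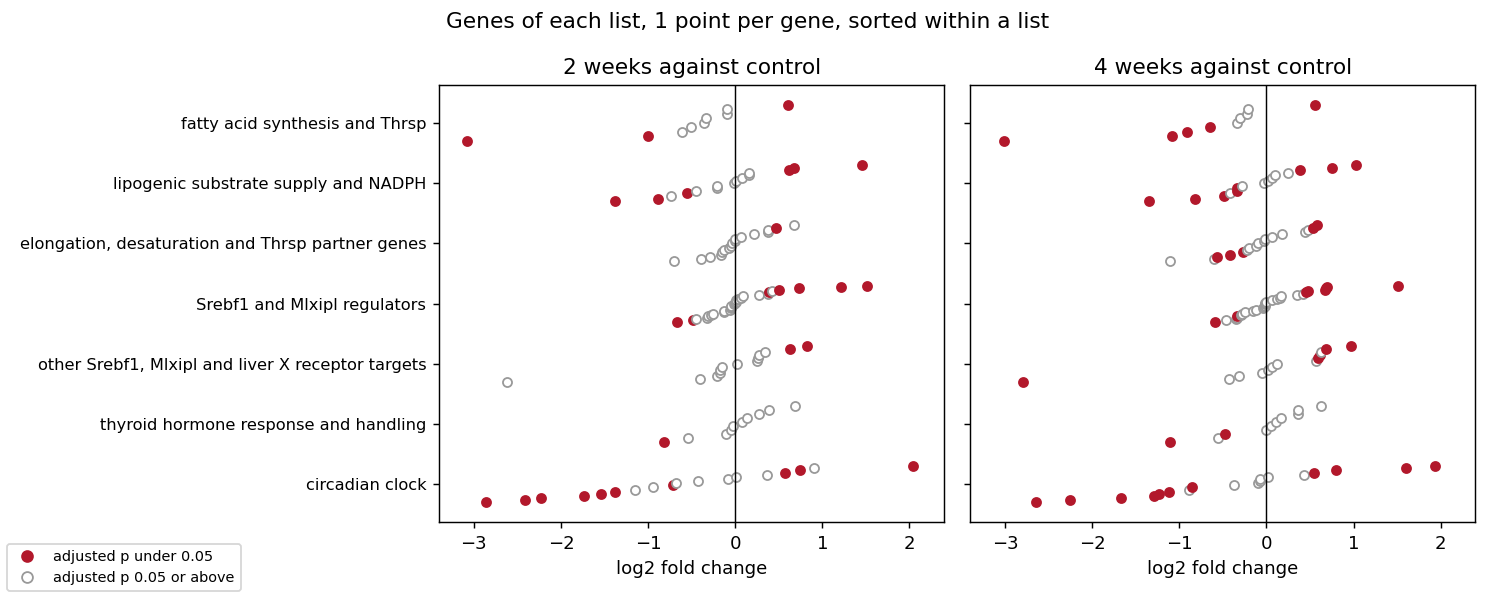
Log2 fold change (x axis) at 2 weeks (left) and 4 weeks (right) of every measured gene of 7 lists (y axis), 1 point per gene and sorted within a list; filled points have an adjusted p under 0.05. The fatty acid synthesis genes lie mostly left of 0, while each of the other lists except that of thyroid hormone response has filled points on both sides at 4 weeks.

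The genes whose values over the 7 arrays were most like those of Thrsp were found among 1014 genes that span at least 1 log2 unit. They were Nrg4 (Pearson r = 0.997), Slc50a1 and Wee1 (both 0.996), Usp2 (0.995) and Fam102a (0.994), and among the lipogenic genes Elovl6 had r = 0.987. The arrays form a control cluster and a cluster after Cre, so these values mainly reflect that split and carry no test. Nrg4, a growth factor of the EGF family, read 8.38, 8.69 and 8.56 in the controls and 6.05, 6.11, 6.07 and 6.19 after Cre. Wee1, a kinase that delays mitosis, read 9.64, 9.74 and 9.75 in the controls and 6.81, 6.82, 6.97 and 6.91 after Cre. Usp2, a ubiquitin protease with a daily rhythm in liver, went from between 9.45 and 9.67 to between 7.20 and 7.47. Slc50a1, a sugar transporter gene, and Fam102a fell by 0.91 and 1.02 at 2 weeks (SE 0.06 and 0.07).

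**Figure D4:**
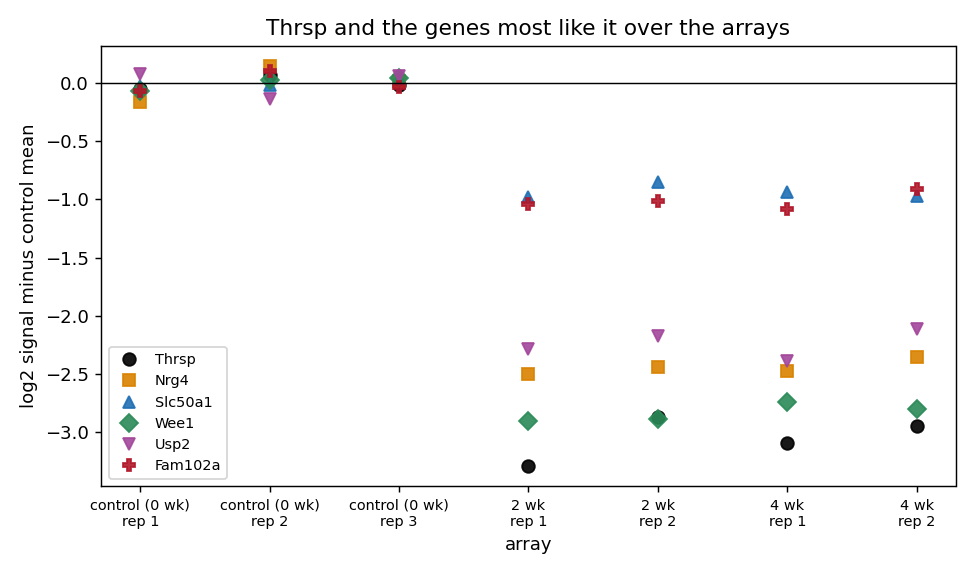
Log2 signal minus the control mean (y axis) of Thrsp and the 5 genes most like it on each of the 7 arrays (x axis), 1 point per gene and array. All 6 genes stay within 0.2 of the control mean on the controls and drop on every array after Cre, Slc50a1 and Fam102a by about 1 and the others by over 2.

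Genes of the circadian clock moved in the same arrays as Thrsp, itself a gene with a daily rhythm in liver. Of 18 measured, 3 rose and 7 fell at 2 weeks, and 4 rose and 7 fell at 4 weeks, with medians of -0.69 and -0.23. Arntl, an activator of the clock, read 7.57, 7.21 and 7.05 in the controls and 9.27, 9.37, 8.96 and 8.80 after Cre, and Dbp, an output gene, 9.51, 9.87 and 10.00 in the controls and 7.38, 7.39, 8.04 and 8.20 after Cre. Per3, a clock repressor gene, fell 2.59-fold and 2.17-fold, and Rora, an activator of Arntl, rose 1.46-fold at 4 weeks. Rora passed at 2 weeks as well, in the same direction. Nr1d2, a relative of Nr1d1, was at -1.54 at 2 weeks, where it passed, and at -0.07 at 4 weeks. Bhlhe40 (-0.95 and -0.89) and Hlf (-0.43 at 2 weeks) did not pass. Nr1d1 was lower at 2 weeks (-0.71, adjusted p = 0.027, limma) and higher at 4 weeks (1.94, adjusted p = 0.00284), while Thrsp and Elovl6 were lower at both. The hour of day at which livers were taken is not given in the labels, and the part of the clock in these results was not tested.

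Markers of cell types were read beside the lipogenic genes, since in whole liver fewer cells of a type and less RNA per cell cannot be told apart. The summed linear signal of 9 hepatocyte markers was 135700 to 140200 in the controls. It was 135400 to 138000 at 2 weeks and 135400 to 137200 at 4 weeks, and 1 of the 9 (Fga) rose at each time. Tat read 14.06 to 14.18 in the controls and 13.25 to 13.70 after Cre, and did not pass at either time. With the mean of both times set against control, 1 of the 9 rose and 1 fell. Markers near the highest value of any probe set (14.7), such as Alb (control mean 14.5), weigh most in this sum. For 6 adipocyte markers the summed signal was 794.8 to 874.3, 826.2 to 831.2 and 835.7 to 914.2, with 0 of 6 changed at either time. Adipoq, Lep and Cfd are not analysed here. For 8 Kupffer cell markers the sums were 2857 to 3463, 2798 to 3750 and 2844 to 3770, with 0 changed. The sums were higher than in the controls for 7 stellate cell markers (4309 to 4510, then 5130 to 5536 and 4853 to 5300; 0 changed) and 5 bile duct markers (500.6 to 551.8, then 560.8 to 613.1 and 590.5 to 621.3; Sox9 rose at 4 weeks). For 7 endothelial markers they were 4691 to 4854 in the controls, 4372 to 5098 at 2 weeks and 5681 to 6570 at 4 weeks, where Clec4g rose. For 4 skeletal muscle markers they were 497.5 to 520.9, 499.4 to 524.9 and 490.9 to 495.1, with 0 changed. When both times together were set against control, 1 of the 7 stellate and 1 of the 5 bile duct markers rose, as did 6.79% of all genes. In that comparison 0 adipocyte, Kupffer cell, endothelial or skeletal muscle markers passed. A linear sum weighs the brightest markers most. For stellate cells this was Dcn (mean log2 signal 11.38 in the controls, 11.66 at 2 weeks, 11.59 at 4 weeks). For bile duct it was Sox9 (7.68, 7.99 and 8.11) and for endothelium Clec4g (10.96, 10.84 and 11.56). The median log2 fold change of the stellate markers was 0.28 and 0.16 at the 2 times. It was 0.07 and 0.08 for bile duct and -0.03 and 0.18 for endothelial markers. The part of the stellate, bile duct and endothelial cells in the lipogenic results was not tested.

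The deleted gene itself was lower after Cre. Dicer1 was at -0.76 at 2 weeks (adjusted p = 0.0158, limma) and -0.66 at 4 weeks (adjusted p = 0.0159), with all 4 arrays under the controls. The median of all probe sets lay between 7.07 and 7.09 on each array. On the first principal component, which held 62.0% of the variance, 2 week replicate 1 (6.56) lay nearest to the controls (-23.8 to -22.4). Thrsp was lowest on that array.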

How the data were processed

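Values were the log2 signals deposited by the authors, 1 per probe set and array (3.15 to 14.7). The log2 scale was inferred from the values. The submitters' processing notes list GCOS 1.4 and do not say what it did. How background, normalization and detection were handled, and any scan batch, is not stated there or in the labels; the number of arrays (3, 2 and 2) limits the precision. Of 21093 probe sets, 17709 had 1 gene symbol in the platform annotation, 187 several and 3197 none; the probe set with the highest mean stood for each of 16819 genes. 1 model with the 3 groups was fitted to all genes with limma 3.58.1 (R 4.3.3, lmFit and eBayes, 4 residual and 1.69 prior degrees of freedom), without filter or rescaling. Tests were two-sided, Benjamini-Hochberg adjusted over all genes, with a threshold of 0.05. The steps were run on simulated data with independent normal noise. Such data lack the equal values shared between the arrays here, so they do not show how well the calls hold in these data. The labels call arrays biological replicates; nothing further is said of their source.

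The genes of the set, the 6 pathway lists (101 of 116 genes measured) and the marker lists (46 of 51 measured) were chosen with earlier results of these data known. Named from each pathway list at each time were up to 4 genes past the threshold with the smallest p and 2 others with the highest mean; genes named beyond that, such as Mid1ip1, Slc25a1, Hacd3, Irs1, Mlx, Nr1h3, Scap, Abcg5, Thrb, Arntl, Elovl3 and Elovl5, were chosen after their values were seen. The alternatives are in the closing section.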

Additional observations from a re-analysis of the deposited data

How the results depend on the processing

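Centring arrays on their median, quantile normalization, leaving out the dimmest 0.25 of genes, averaging probe sets and eBayes with trend and robust kept every count of the 9 genes and of all genes within 1.5 times its main value. Of the single values, 1 changed sign under these: Scd1 at 4 against 2 weeks was -0.031 with quantile normalization. Fitting only the groups compared gave 3 of the 9 genes at 4 weeks (Thrsp, Elovl6 and Mlxipl), 276 of all genes at 2 weeks (997 in the main fit) and 0 between the times. With the replicate number as a replicate block, 0, 0 and 1 of the 9 genes passed at 2 weeks, at 4 weeks and for both times together, and 0, 2 and 5 of all genes (997, 1643 and 2171 without it), with 0 of all genes between the times. Thrsp then had adjusted p-values of 0.0716 and 0.0762 at 2 and 4 weeks and values of -3.09 and -3.03. The labels state no link between same-numbered arrays. Their deviations from the group means correlated at -0.07 to 0.11. In a group of 2 arrays these deviations are mirror images, so the correlations cannot show whether same-numbered arrays were paired. The block leaves fewer residual degrees of freedom. Control replicate 3 is the only array of its number, so it adds nothing to the values fitted with the block. Thrsp at 2 weeks was at -3.09 both with the block and without that array.

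Leaving out 1 array in turn gave 1 to 3 of the 9 genes at 2 weeks, 1 to 3 at 4 weeks, 2 to 4 for both times together and 0 to 0 between the times. The counts in the 6 lists, an alternative chosen after seeing the data, fell to as low as 0 in each direction in every list but 2: at least 1 regulator rose at both times, and at least 1 clock gene rose and 1 fell. The counts of all genes ran from 41 to 2168, 63 to 1948, 570 to 2788 and 0 to 0. Values that changed sign in these fits, none of them called, were Acly (-0.26 to 0.076) and Acaca (-0.27 to 0.0073) at 2 weeks and Srebf1 (-0.49 to 0.055) at 4 weeks. Between the times they were Thrsp (-0.15 to 0.28), Acly (-0.30 to 0.036), Fasn (-0.29 to 0.0019), Scd1 (-0.13 to 0.17), Elovl6 (-0.19 to 0.021) and Mlxipl (-0.23 to 0.15). The cause was not tested; each such fit also has fewer arrays. No detection limit was given, so the weakest signals have no known floor.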

Other observations

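Elovl3, an elongase of very long chains that belongs to the list of elongation genes, differed widely between the 2 week arrays. It stood at 11.01, 10.81 and 10.45 in the controls, at 12.52 and 8.69 at 2 weeks and at 9.91 and 9.41 at 4 weeks. The 2 week arrays thus lay above and below all controls, and the fit gave -0.16 at 2 weeks (adjusted p = 0.958, limma) and -1.10 at 4 weeks (adjusted p = 0.59). On the same 2 arrays Thrsp read 9.62 and 10.05 and Elovl6 9.26 and 9.47. Elovl5, which elongates polyunsaturated chains, read 12.15 and 12.80 at 2 weeks against 11.63, 11.75 and 12.01 in the controls and did not pass (0.68, adjusted p = 0.125).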
